A study of Mus musculus with 4 samples.

Results

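Utf1, Lin28a, Lin28b, Dppa2, Dppa3, Dppa4, Dppa5a, Zfp42 and L1td1 are 9 genes used as markers of pluripotent stem cells, and they are described here in mouse embryonic stem cells that lose a subunit of RNA polymerase II. They are 9 of 30282 genes in the table and were chosen by symbol, because Utf1 and Lin28a were among the steepest falls of the one contrast in these data. The values of that contrast thus chose the genes, and their differences are given as a description, with no test. The cells were V6.5 mouse embryonic stem cells in which RPB3, the polymerase subunit encoded by Polr2c, carries the auxin degron tag mAID and GFP (dRPB3). They were grown without any named feeder layer in medium with 15% FBS, 3 µM CHIR99021 (an inhibitor of the kinase GSK3) and 0.5 µM PD0325901 (an inhibitor of MEK). All libraries come from cells given doxycycline at 1 µg/ml for 12 h, which induces TIR1, the F-box protein that recognises the tag. In the Untreated group (2 libraries) nothing followed the doxycycline. In the IAA group (2 libraries) the auxin IAA was added at 500 µM, with a duration of 12 h in the characteristics of the samples and of 1 h in a sentence of the treatment protocol. Every library carries the tag, so by the labels auxin is what sets the IAA group apart. Cells without the tag are not analysed here, and the labels do not say whether the line is a clone or whether the replicates are separate cultures, so the spread given may be technical.

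These genes are known for marking the pluripotent state while acting at different levels of gene control. Utf1 is a chromatin protein of pluripotent and germ line cells that binds bivalent promoters, which carry activating and repressive marks at once. Lin28a and Lin28b are RNA-binding proteins that block the maturation of let-7 microRNAs, and let-7 in turn silences Lin28 messages through their 3′ UTRs. Dppa2 and Dppa4 form a chromatin-bound pair that primes developmental genes and genes of the two-cell embryo, Dppa3 (Stella) limits DNA methylation by keeping Uhrf1 from chromatin, Dppa5a is a small protein with a KH-type RNA-binding fold, Zfp42 (Rex1) is a zinc finger factor of naive cells, and L1td1 is an RNA-binding protein that derives from a LINE-1 element.

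Stretches of DNA just before the annotated starts of 4 members are shown because the 2 steepest falls (Utf1 and Lin28a) stood beside 2 small differences (Zfp42 and L1td1) in the same cells. The sequences are from RefSeq on GRCm38.p6, read 5′ to 3′ on the strand of the gene and ended before the first annotated exon base. Capitals mark matches, on either strand, to any of 6 motifs, namely the octamer-type motif TTTGCAT, the Sox-type motif CATTGT, the GC box motif GGGCGG, the TATA box motif TATAAA, the CCAAT box motif CCAAT and the E box motif CACGTG.
Utf1, chr7:139943606-139943788, plus strand: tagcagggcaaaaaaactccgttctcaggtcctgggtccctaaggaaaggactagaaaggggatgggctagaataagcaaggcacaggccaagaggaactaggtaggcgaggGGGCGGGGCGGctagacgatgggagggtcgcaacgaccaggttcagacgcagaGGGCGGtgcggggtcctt
Lin28a, chr4:134018842-134019066, minus strand: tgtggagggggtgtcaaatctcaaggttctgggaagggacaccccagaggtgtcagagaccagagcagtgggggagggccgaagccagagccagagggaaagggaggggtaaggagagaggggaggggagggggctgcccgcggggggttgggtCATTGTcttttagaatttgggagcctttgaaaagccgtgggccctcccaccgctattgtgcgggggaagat
Zfp42, chr8:43307010-43307259, minus strand: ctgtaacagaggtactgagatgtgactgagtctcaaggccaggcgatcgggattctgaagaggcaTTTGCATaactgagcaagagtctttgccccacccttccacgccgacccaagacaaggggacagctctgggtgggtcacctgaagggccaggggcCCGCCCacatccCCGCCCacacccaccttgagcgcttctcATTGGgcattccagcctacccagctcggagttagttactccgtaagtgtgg
L1td1, chr4:98726504-98726733, plus strand: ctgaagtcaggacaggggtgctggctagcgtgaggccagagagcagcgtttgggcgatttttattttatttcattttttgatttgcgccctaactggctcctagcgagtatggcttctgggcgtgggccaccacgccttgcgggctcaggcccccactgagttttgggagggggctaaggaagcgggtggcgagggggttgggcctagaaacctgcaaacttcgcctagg

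Windows of 250 bases before the RefSeq start were found for 5 of the 9 genes. The Utf1 window held 4 GC boxes, 2 of which overlap, and 3 of these lie in the stretch printed above. Of 32851 such windows in all, 32.7% held at least 1 GC box. The Lin28a window held 1 match to CATTGT, a motif present in 10.7% of windows. The Zfp42 window held 1 match to TTTGCAT (4.12% of windows), 2 GC boxes and 1 CCAAT (33.8% of windows). No searched motif matched in the L1td1 window, and the Lin28b window, which is not printed, held 1 CCAAT and 1 CACGTG (6.02% of windows). TATAAA, present in 12.4% of windows, matched in none of the 5. The windows of Utf1, Lin28a, Zfp42 and L1td1 held 61.6%, 61.2%, 58.4% and 57.6% G and C, above the median of 52.4% over all windows, and that of Lin28b held 39.2%. Whether the composition or the motifs of a window bear on the change of its gene was not tested. A match is a stretch of letters in a window, and binding was not measured.

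Between the groups, Utf1 stood furthest apart. Its normalised read count, a read count divided by 1 size factor per library, was 1014 and 894 in Untreated replicates 1 and 2 and dropped to 244 and 291 in IAA replicates 1 and 2. Both IAA values lay below both Untreated values, and the group mean went from 954 ± 84.9 to 267.5 ± 33.2 (SD, n = 2), or 28.0% of the Untreated level. The log2 fold change, taken on log2(value + 1) throughout, was -1.83 (SE 0.09), and single pairs of an IAA and an Untreated library gave -2.05 to -1.62. Among 14928 genes with a mean of at least 10, all of which were tested, Utf1 had the rank 12 from the steepest fall. It is also a very short gene: chr7:139943789-139945112 on the plus strand of mm10 spans 1324 bases with 2 exons, and only 0.8% of the 13059 tested protein-coding genes span less.

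**Figure D1:**
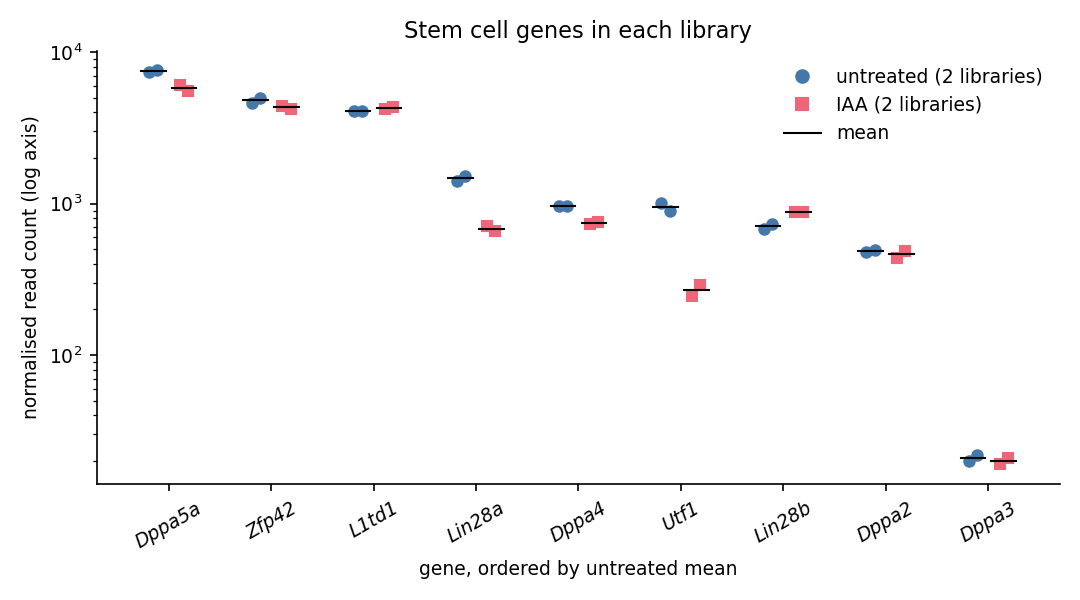
Normalised read counts of the 9 genes in each library on a log axis; points are the 2 Untreated and the 2 IAA libraries and horizontal lines are group means. Utf1 and Lin28a drop clearly, Lin28b is higher in both IAA libraries, and Dppa2 and Dppa3 overlap between groups.

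The 2 Lin28 paralogues differed in opposite directions. Lin28a (chr4:134003330-134018841, minus strand) had 1409 and 1522 normalised reads without auxin and 712 and 656 with it. The IAA values were 46.7% of the Untreated level on average (684 ± 39.6 against 1466 ± 79.9, SD, n = 2). Its log2 fold change was -1.10 (SE 0.06), and it had the rank 220 from the steepest fall. Lin28b (chr10:45376620-45486395, minus strand) stood at 685 and 729 without auxin and at 876 and 885 with it. The groups did not overlap for Lin28b either, with means of 707 ± 31.1 and 880.5 ± 6.36 (SD, n = 2). The IAA group was the higher of the 2 (log2 fold change 0.32, SE 0.06). The standard errors that the authors deposited were larger, at 0.13 for Lin28b, 0.12 for Lin28a and 0.16 for Utf1. Per kilobase of exonic sequence, Lin28b was 0.214 and 0.211 of Lin28a in the Untreated replicates and 0.542 and 0.595 after IAA. The ratio was thus higher in both IAA libraries, with a log2 change of 1.42, while Lin28a remained the higher in all 4 on this scale. The exonic length counts every annotated exon, 9.065 kb for Lin28b, whose longest coding transcript has 5402 bases. Without division by length, Lin28b was 0.486 and 0.479 of Lin28a in the Untreated replicates and 1.23 and 1.35 after IAA. Which message was the more abundant under IAA thus depends on the length used. Both ratios are taken within each library and do not depend on how libraries are scaled.

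Both Lin28 messages carry sites for let-7, whose sequence is shown because it links the paralogues to the pathway they control. All 9 let-7 and miR-98 5p sequences in RefSeq share the seed GAGGUAG (bases 2 to 8, in capitals below), which pairs with CTACCTC in a target. The 3′ UTR of Lin28a, 2775 bases long, holds 2 such sites and that of Lin28b, 4445 bases long, holds 4. The other 7 members hold none, but their 3′ UTRs are only 122 to 1012 bases long. Over all genes with a 3′ UTR 10.8% hold at least 1 (1399 of 12992, with a median length of 1152 bases). Below, 30 bases around the 2 sites of Lin28a and around the first site of Lin28b are given with the site in capitals.
let-7a: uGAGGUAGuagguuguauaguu
Lin28a, chr4:134005183-134005212, minus strand: tgcacagcctgttgaaCTACCTCatttttg
Lin28a, chr4:134004545-134004574, minus strand: tgagatcgccacaaacCTACCTCactgtgt
Lin28b, chr10:45381016-45381045, minus strand: cacccgggcgggaagtCTACCTCatgcaag
Mature let-7 is not measured by a poly(A) library. The precursor gene Mirlet7g was listed at 0 or 1 in every library. The 2 members with such sites are the paralogues that differed in opposite directions, and a part of let-7 in this was not tested.

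The Dppa2 and Dppa4 genes lie 9.671 kb apart on the plus strand of chromosome 16. Dppa4 (chr16:48283733-48294237) was at 959 and 960 without auxin and at 733 and 760 with it. The IAA group was lower without overlap, at 77.8% of the Untreated level (746.5 ± 19.09 against 959.5 ± 0.707, SD, n = 2; log2 fold change -0.36, SE 0.06). Dppa2 (chr16:48303908-48319723) was at 478 and 497 without auxin and at 439 and 488 with it. Its groups overlapped, and the log2 fold change was -0.07 (SE 0.08). Per kilobase of exon, Dppa2 was 0.339 and 0.352 of Dppa4 in the Untreated replicates and 0.407 and 0.436 after IAA. The message of Dppa4 was thus the more abundant of the pair in each library, by a smaller margin after IAA.

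Dppa3 (chr6:122626410-122630272, plus strand) was close to the limit of what could be measured. It had 20 and 22 normalised reads without auxin and 19 and 21 with it, and each library held 18 to 20 reads. The groups overlapped, and the log2 fold change was -0.07 with an SE of 0.31. A change of the size seen for Dppa4 could not be told from none at this depth.

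Dppa5a (chr9:78367052-78368177, minus strand) was the most abundant of the 9 genes. Its libraries held 7356 and 7578 normalised reads without auxin and 6116 and 5524 with it. The groups did not overlap, and the IAA mean of 5820 ± 419 was 77.9% of the Untreated mean of 7467 ± 157 (SD, n = 2; log2 fold change -0.36, SE 0.04). The gene spans 1126 bases with 3 exons, and 0.6% of tested protein-coding genes span less. Dppa5a and Utf1, the 2 shortest members, stood at 77.9% and 28.0% of their Untreated levels. Whether gene length bears on the change was not tested.

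Zfp42 and L1td1 differed little between the groups. Zfp42 (chr8:43295063-43306980, minus strand) was at 4643 and 4963 without auxin and at 4404 and 4231 with it, values which do not overlap and give a log2 fold change of -0.15 (SE 0.04). L1td1 (chr4:98726734-98738480, plus strand) was at 4109 and 4086 without auxin and at 4214 and 4379 with it. Its IAA values were the higher ones, by 0.07 on the log2 scale (SE 0.04). Set against L1td1 per kilobase of exon, Utf1 was 0.638 and 0.566 in the Untreated replicates and 0.150 and 0.172 after IAA.

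Counted together and read as a description, 5 of the 9 genes were called lower (Utf1, Lin28a, Dppa4, Dppa5a, Zfp42), 1 was called higher (Lin28b) and 3 were not called by limma at an adjusted p under 0.05. Over all 14928 tested genes 28.9% were called lower and 11.1% higher. The authors' deposited test called 4 members lower and 0 higher, with 1100 and 284 of all genes. Without a filter on low values 3 members were lower and 0 higher, with 638 and 179 of all genes. Lin28b and Zfp42 thus lost their calls in both, and Dppa5a lost its call without the filter. The groups did not overlap for 5 members in the lower and 2 in the higher direction, where 45.6% and 22.5% of all tested genes did the same. The median log2 fold change was -0.15 over the 9 genes and -0.11 over all genes. Utf1, Lin28a, Dppa4, Dppa5a and Zfp42 are the members without overlap in the lower direction, and Lin28b and L1td1 those in the higher.

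**Figure D2:**
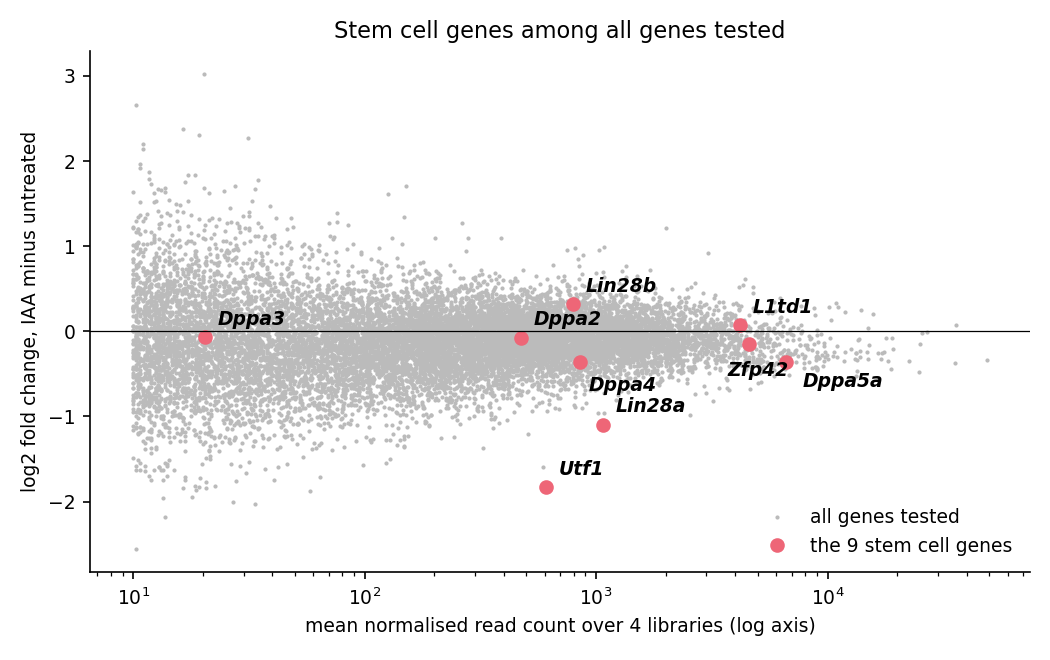
Log2 fold change (IAA against Untreated) against the mean normalised read count on a log axis, with all 14928 tested genes in grey and the 9 genes named. Utf1 at -1.83 and Lin28a at -1.10 lie at the lower edge, while the other 7 lie between -0.36 and 0.32.

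The scaling of the libraries moves these values together. The deposited size factors place the IAA libraries lower than factors computed from the recovered reads by the median of ratios, which shifts the median of all genes from -0.11 to -0.01. On that second scale Utf1 was at -1.73, Lin28a at -0.998, Dppa4 and Dppa5a at -0.26, Zfp42 at -0.05, Dppa2 and Dppa3 at 0.03, L1td1 at 0.17 and Lin28b at 0.42. Dppa2 and Dppa3 thus changed sign. There, 4 members were called lower and 2 higher, against 20.5% and 20.4% of all genes, because Zfp42 left and L1td1 entered the called genes. Whether the deposited factors rest on the Drosophila S2 spike-in named in the labels or on mouse reads is not stated.

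**Figure D3:**
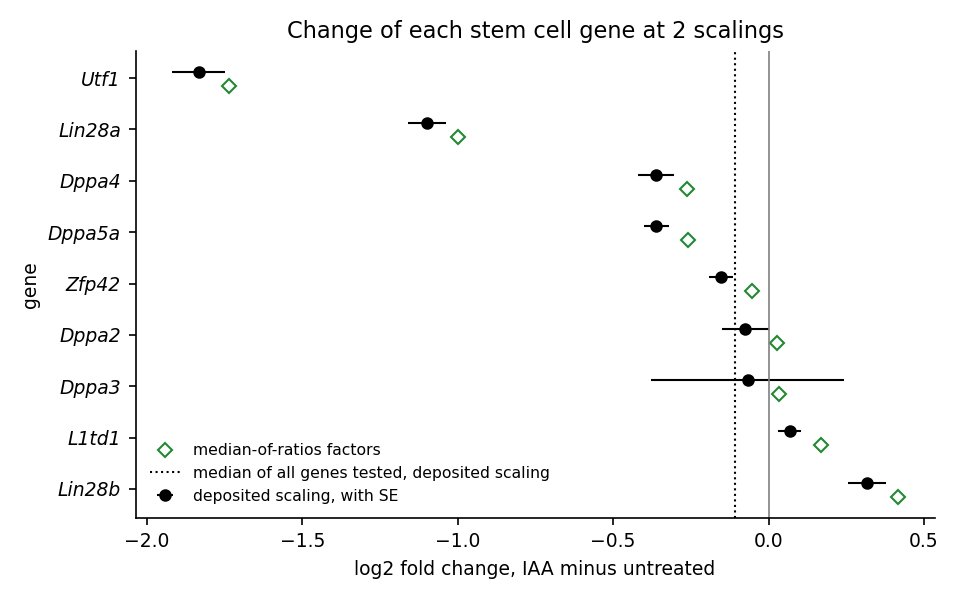
Log2 fold change of each of the 9 genes with the deposited size factors and with median-of-ratios factors; bars are standard errors and the dotted line is the median of all tested genes with the deposited factors. All 9 move up by about the same step, and only Dppa2 and Dppa3, close to 0, change sign.

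Per kilobase of exon, the order of the levels in the Untreated group was Dppa5a at 12063 normalised reads, Zfp42 at 2553, L1td1 at 1291, Utf1 at 778, Dppa4 at 577, Lin28a at 367, Dppa2 at 199, Lin28b at 78.0 and Dppa3 at 23.5. Dppa5a lay above 99.9% of tested genes on this scale and Dppa3 above 30.1%. Under IAA the first 3 places were the same, at 9402 for Dppa5a, 2295 for Zfp42 and 1354 for L1td1. Dppa4 (449) then stood above Utf1 (218), and Dppa2 (189) above Lin28a (171), followed by Lin28b (97.1) and Dppa3 (22.4). Utf1 and Dppa2 overlapped between their IAA libraries, so their order there lies within the spread. Added up, the 9 genes made 0.209% and 0.210% of all normalised reads before and 0.189% and 0.187% after IAA. In bulk RNA, fewer cells of a type and less RNA per cell cannot be told apart.

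The members also differ in gene structure. They span 1126 bases (Dppa5a) to 109776 bases (Lin28b), against a median of 23782 bases over the tested protein-coding genes. Their exonic sequence runs from 0.619 kb in Dppa5a to 9.065 kb in Lin28b, with 1.227 kb in Utf1 and 3.996 kb in Lin28a.

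Some member reads could belong to near-identical copies. Processed copies with at least 95% identity over at least 100 bases were found for Dppa2, Dppa3, Dppa4, Dppa5a and Zfp42, and none for Utf1, Lin28b and L1td1. Zfp42-ps1, with 98.1% identity over 266 bases, had a mean of 162 normalised reads, and Pigp, which matches Dppa5a over 417 bases, had a mean of 111. Exons of Lin28a share 234 bases with Gm13061 on the opposite strand. The strand setting is not given in the sources used here, so these bases could hold reads of either.

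The nearest tested genes on each side were compared next, since the rule did not use them. They lay 2.252 to 1785 kb from the member. Of 16 such neighbours that are no members themselves, 7 were called lower, 1 was called higher and 8 were not called, where 28.9% and 11.1% of all tested genes were lower and higher. By median of ratios 5 were lower, 6 higher and 5 not called, against 20.5% and 20.4% of all genes. Kndc1, a gene for a guanine nucleotide exchange factor with a kinase-like domain, ends 2.252 kb before Utf1 on the same strand. Kndc1 fell from 76 and 51 to 20 and 16 normalised reads (log2 fold change -1.74, SE 0.27, adjusted p = 3.0e-05 by limma), a step close to that of Utf1 at a much lower level. Gm16201, 5.284 kb beyond Utf1, was not called (-0.50, adjusted p = 0.27). Morc1, a germ line ATPase gene 112 kb away on the far side of Dppa2, fell from 1058 and 1093 to 776 and 765 (-0.48, SE 0.06, adjusted p = 1.5e-06). Ooep, an egg gene that is a KH-domain relative of Dppa5a and lies 7.932 kb from it, fell from 594 and 598 to 458 and 448 (-0.40, SE 0.07, adjusted p = 0.00014). Both tested neighbours of L1td1 fell, Patj by 0.50 and Kank4 by 0.59 on the log2 scale (adjusted p = 0.014 and 0.00045), while L1td1 itself stood at 0.07. Beside Lin28a, Dhdds was not called (0.13, adjusted p = 0.23) and Crybg2 fell by 0.37 (adjusted p = 0.022). On the median-of-ratios scale Dhdds was called higher (0.23, adjusted p = 0.023) and Crybg2 was not called (adjusted p = 0.065). Fat1, the nearest tested gene on 1 side of Zfp42 but 1628 kb away, was the 1 neighbour that rose with the deposited factors (0.29, adjusted p = 9.4e-06). It also rose by median of ratios, together with Dhdds, Gm10420, Gsta4, Bves and Nectin3. Of these, Gsta4 lies 158 kb from Dppa5a and Nectin3 1785 kb from Dppa4. Without a filter on low values 6 of the 8 called neighbours lost their call, namely Kndc1 (adjusted p = 0.075), Kank4 (0.071), Patj (0.18), Crybg2 (0.23), Gdf3 (0.093) and Fat1 (0.060). In the authors' deposited table Ooep (adjusted p = 0.086), Kank4 (0.14), Patj (0.39), Crybg2 (0.42) and Gdf3 (0.34) were not called, and Kndc1 has no adjusted p.

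**Figure D4:**
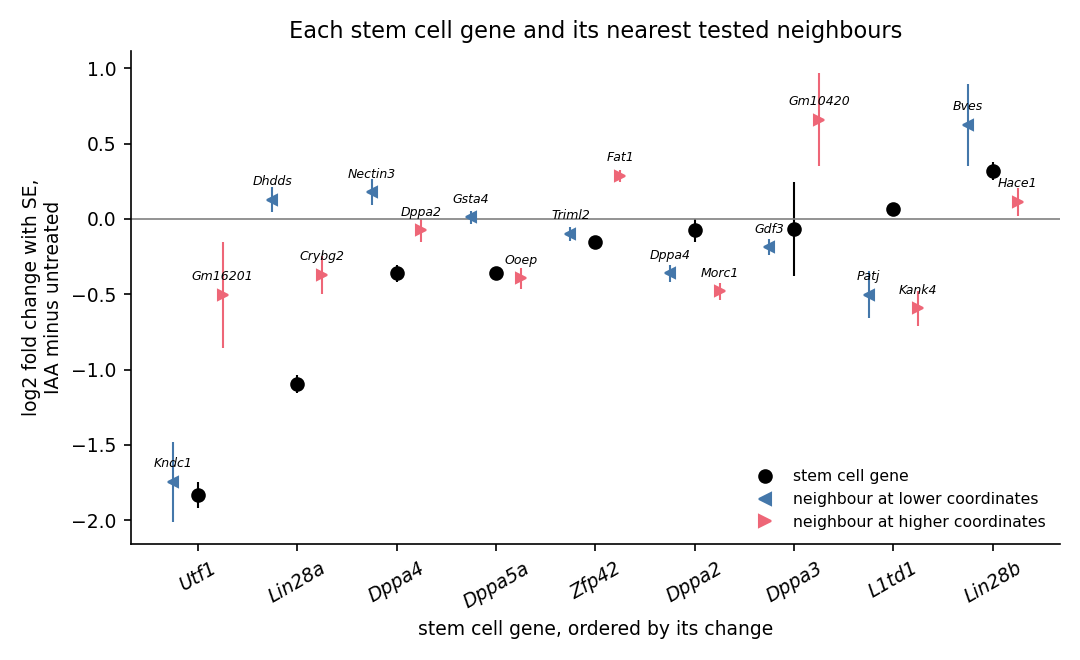
Log2 fold change of each of the 9 genes and of its nearest tested neighbour on either side, with standard errors as bars. Kndc1 at -1.74 stands beside Utf1 at -1.83, whereas the neighbours of Lin28a lie at -0.37 and 0.13.

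The genes whose values over the 4 libraries were most like those of the 2 steep members were looked up among 9440 genes with a mean of at least 100, by the Euclidean distance of centred log2 values. For Lin28a these were Apela, a gene for a small secreted peptide of embryonic stem cells, at a distance of 0.0103, and Rps6ka2 (0.0686). Apela went from 338 and 366 to 172 and 158 normalised reads, with a log2 fold change of -1.09. For Utf1 the nearest were Kifc3 (0.413), Pdk1 (0.420) and Inhbb (0.478). The distance depends largely on the size of the fall, and the size of their falls is why these 2 genes were chosen. Few genes fell as far as Utf1 (rank 12, against rank 220 for Lin28a), so its larger distances say nothing further about it.

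Genes of the members' pathways were counted in 10 lists, which hold 240 symbols. Of these, 187 were tested, and 61 fell, 38 rose and 88 were not called. Their median log2 fold change was -0.03 against -0.11 over all genes. The shares were 32.6% lower and 20.3% higher, against 28.9% and 11.1% of all tested genes. On the median-of-ratios scale 47 fell and 67 rose, where 20.5% and 20.4% of all tested genes did so. The counts of each list below are to be read beside these shares of all genes. Of the 26 called companion genes that the naming rule picked, 18 lost their call without a filter on low values. Of the 24 with an adjusted p in the authors' deposited table, 15 were not called there. The filter-free fit used rounded values, and 794 of its 30282 genes had no spread, against 10 of 14928 in the main fit. With unrounded values it called 37 companion genes lower and 22 higher, against 14 and 5 with rounded ones. Calls lost there may thus reflect rounding as well as low values.

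Of 29 other stem cell markers and ES cell associated transcripts tested, 16 were called lower and 7 higher, with a median of -0.18. These are 55.2% and 24.1%, against 28.9% and 11.1% of all tested genes. By median of ratios 12 were lower and 9 higher. Tdh, the threonine dehydrogenase that feeds one-carbon metabolism in mouse ES cells, fell from 3249 and 3508 to 1728 and 1678 normalised reads (-0.99, SE 0.05, adjusted p = 1.4e-11). Eras, an ES cell Ras protein, fell by 0.95 and Sox15, a Sox family factor, by 0.86 on the log2 scale (adjusted p = 0.00038 and 0.0044). Of the 7 higher, Tex19.1 (0.64, adjusted p = 1.4e-07) and Jam2 (0.61, adjusted p = 2.4e-10) moved most, both named after their values were seen. Without a filter on low values 5 genes of this list were lower and 2 higher. Core and naive pluripotency factors had 2 of 23 called lower and 9 higher (8.70% and 39.1%, with a median of 0.11). By median of ratios 2 of them were lower and 16 higher. Klf4, a naive reprogramming factor, rose from 3409 and 3429 to 4941 and 4869 (0.52, SE 0.04, adjusted p = 2.4e-09). Prdm14, a repressor of differentiation signals, rose by 0.61 and Tbx3, a T-box factor, by 0.57 on the log2 scale (adjusted p = 8.5e-07 and 3.6e-09). Named after their values were seen, Nanog rose by 0.33 and Pou5f1, the gene of Oct4, fell by 0.24. Without a filter on low values Eras (adjusted p = 0.085), Sox15 (0.088), Pou5f1 (0.13) and, narrowly, Prdm14 (0.0503) lost their calls. Eras and Sox15 were not called in the authors' deposited table either (adjusted p = 0.11 and 0.29). The steep falls of Utf1 and Lin28a thus stood beside higher levels of several naive factors in the same libraries.

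**Figure D5:**
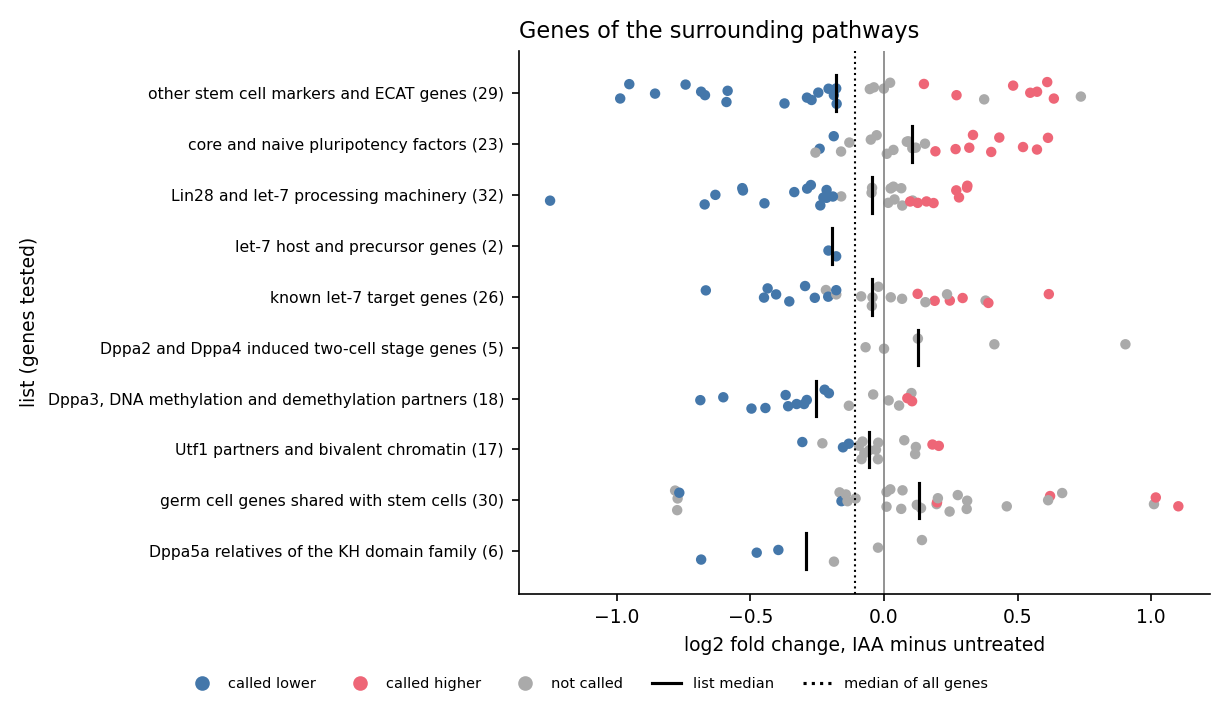
Log2 fold change of each tested gene in the 10 companion lists, with 1 row a list, lines at list medians and colours for genes called lower, higher or not called. Core and naive factors lie mostly above 0, and the DNA methylation list mostly below.

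Of the machinery that Lin28 proteins and let-7 act through, 14 of 32 tested genes fell and 8 rose (43.8% and 25%, with a median of -0.05). By median of ratios 11 of them fell and 13 rose. Ago4, an Argonaute that binds mature microRNAs, fell from 38 and 39 to 11 and 22 normalised reads (-1.25, SE 0.32, adjusted p = 0.0039). Prkra, a partner of Dicer, fell by 0.67 and Hnrnpa1, which binds let-7 precursors, by 0.63 on the log2 scale (adjusted p = 0.0029 and 2.3e-10). Named after their values were seen, Dis3l2, the exonuclease that degrades uridylated pre-let-7, fell by 0.45, while Tut4 (0.04) was not called (higher by median of ratios) and Tut7 rose by 0.27. Tut4 and Tut7 encode the uridylating enzymes that Lin28a recruits. Of 2 tested genes that host a let-7 in an intron, Huwe1 fell by 0.21 and Wdr82 by 0.18 (adjusted p = 3.2e-05 and 0.0051), and only Huwe1 did so by median of ratios. Of these genes Ago4 (adjusted p = 0.18), Prkra (0.097), Tut7 (0.062), Huwe1 (0.051) and Wdr82 (0.087) lost their calls without a filter on low values. In the authors' deposited table Prkra (adjusted p = 0.25), Tut7 (0.15) and Wdr82 (0.24) were not called, and Ago4 has no adjusted p. Known let-7 targets split, with 9 lower and 6 higher of 26 (34.6% and 23.1%, with a median of -0.04). By median of ratios 7 targets were lower and 9 higher. Hmga2, a chromatin protein and well-known target, fell from 108 and 143 to 88 and 69 (-0.67, SE 0.17, adjusted p = 0.0037). Ccnj, a cyclin, rose by 0.62 on the log2 scale (adjusted p = 0.00013). Neither call held without a filter on low values (adjusted p = 0.19 for Hmga2 and 0.053 for Ccnj) or in the authors' deposited table (0.24 and 0.088).

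The list around Dppa3, of DNA methylation and its removal, had 11 of 18 genes lower and 2 higher (61.1% and 11.1%, with a median of -0.26). By median of ratios 10 were lower and 5 higher. Zfp57, a zinc finger protein that guards imprinted methylation, fell from 4666 and 4577 to 2812 and 2929 (-0.69, SE 0.04, adjusted p = 1.5e-10). Nthl1, a base excision repair glycosylase, fell by 0.60 and Dnmt3a, a de novo methyltransferase, by 0.50 on the log2 scale (adjusted p = 0.0001 and 2.6e-06). Nthl1 narrowly lost its call without a filter on low values (adjusted p = 0.0503) and was not called in the authors' deposited table (0.079). Uhrf1, the factor that Dppa3 displaces and that was named after its value was seen, fell by 0.44. Of the two-cell stage genes that Dppa2 and Dppa4 can switch on, 21 were in the table, only 5 were tested and none was called (1 higher by median of ratios). Most others stood under a mean of 10. Eif1a was at 1775 to 1841 in all libraries (adjusted p = 0.996). It lay far above the other tested genes of this list, such as Usp17le at 14 to 26, and does not stand for them.

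Partners of Utf1 in bivalent chromatin were mostly not called, with 3 lower and 2 higher of 17 (17.6% and 11.8%, with a median of -0.06). By median of ratios 1 was lower and 5 higher. Ezh1, a methyltransferase of a Polycomb complex, fell by 0.31, while Men1 and Kmt2a, subunits of an activating H3K4 methyltransferase complex, rose by 0.21 and 0.18 on the log2 scale (adjusted p = 0.00099, 0.0099 and 0.0032). These 3 calls were lost without a filter on low values (adjusted p = 0.085, 0.18 and 0.055) and in the authors' deposited table (0.16, 0.31 and 0.21). Germ cell genes shared with stem cells had 2 lower and 4 higher of 30 (6.67% and 13.3%, with a median of 0.13). By median of ratios 1 germ cell gene was lower and 9 were higher. Taf7l, a germ line TFIID subunit, rose from 27 and 24 to 61 and 51 (1.10, SE 0.24, adjusted p = 0.00095), and Brdt, a testis bromodomain protein, from 40 and 43 to 95 and 76 (1.02, SE 0.19, adjusted p = 0.00032). Dnd1, an RNA-binding protein of primordial germ cells, fell by 0.77 (adjusted p = 0.00038). Without a filter on low values Taf7l, Brdt and Dnd1 were not called (adjusted p = 0.065, 0.070 and 0.069). Brdt and Dnd1 were not called in the authors' deposited table (adjusted p = 0.11 and 0.12), where Taf7l has no adjusted p. Of 6 tested KH-domain relatives and partners of Dppa5a, 3 fell and none rose (median -0.29). These were Khdc3, an egg and ES cell protein (-0.68, adjusted p = 0.00031), Tle6, its partner in the egg (-0.48, adjusted p = 0.0062), and Ooep, described above. Khdc3 and Tle6 lost their calls without a filter on low values (adjusted p = 0.13 and 0.11) and in the authors' deposited table (0.071 and 0.33).

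The labelled cell type was present in its markers. The 8 ES cell markers summed to 44480 to 44838 normalised reads in the Untreated and to 46425 to 47582 in the IAA libraries, with 2 called lower and 4 higher. Primitive endoderm markers, 9 of 9 in the table, summed to 1626 to 1712 and to 1082 to 1090, with 2 of 7 tested called lower. Most of this drop was that of Lamb1, from 1190 and 1128 to 663 and 632. Gata4 (120 and 113 against 119 and 137) and Pdgfra (34 and 31 against 42 and 41) did not fall, so the sum does not stand for all of these markers. Feeder fibroblast markers, 5 of 10 in the table, summed to 425 to 495 and to 349 to 358, with 2 of 3 tested called lower. Markers of trophoblast (8 of 8) summed to 619 to 649 and to 665 to 701, with 2 of 4 tested called higher and Cdx2 at 0 or 1. Krt8 (335 and 349 against 311 and 300) went the other way. Neural ectoderm markers (8 of 8) summed to 1746 to 1927 and to 2069 to 2206, with 1 of 4 tested called higher. Nes went from 661 and 749 to 1055 and 1003. Tubb3 (880 and 961 against 941 and 872) overlapped and Map2 (66 and 72 against 52 and 48) was lower. Neither sum thus stands for all of its markers. Mesoderm markers (7 of 8) summed to 67 to 73 and to 56 to 64. The calls in these marker lists are to be read beside the 28.9% lower and 11.1% higher of all tested genes. No marker in the table was at 0 in all libraries. The part of these shifts in the values of the 9 genes was not tested. Library depth lay between 8724737 and 9194432 recovered reads. Polr2c, whose protein and not its message is degraded, was at 2726 and 2885 against 3242 and 3158 (0.19, adjusted p = 0.0012; 0.096 without a filter on low values and 0.11 in the authors' deposited table), which does not check the labels.

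The calls rest on 2 libraries a group. Leaving out any 1 of the 4 removed every call when the deposited rounded values were used, since rounded values that are equal in a pair leave no spread. With values that were not rounded, 3471 to 3939 genes were called lower and 1146 to 1608 higher in the same leave-outs. Over all 21 alternatives Utf1 ranged from -1.96 to -1.71, Lin28a from -1.16 to -0.99 and Lin28b from 0.27 to 0.42.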

How the data were processed

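Poly(A) RNA of 4 libraries was analysed from 1 table of 30282 mouse genes. The members and lists were chosen with earlier results of these data known. The builds are mm10 and dm6 and the tools DESeq2, featureCounts, STAR, Bowtie2, cutadapt 1.18, deepTools and SAMtools, per the submitters' processing notes. The sources used here name neither an annotation nor a strand setting. The authors deposited 4 columns of scores, 1 a library: reads divided by a size factor (0.88, 0.87, 0.98 and 0.95, recovered from the values) and rounded. The deposited mean is a signal, their unrounded mean, and gave whole reads for 100% of genes (tolerance 0.001). The authors also deposited log2 fold changes with standard errors, a test score, p-values and adjusted p-values, used here as an alternative only.

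Genes with a mean of at least 10 (14928; 15354 were left out) entered limma 3.58.1 (R 4.3.3) as log2(value + 1), with an empirical Bayes trend and Benjamini-Hochberg adjustment over all of them, and were called at an adjusted p under 0.05. This scale understates changes of low genes. Members have no p-value. Named companions are the 3 called genes with the largest change in each list, or the 2 of highest mean where none was called; neighbours are the nearest tested genes on each side. Some genes that these rules pick are not reported here. limma was tested on simulated data. Gene models are those of GENCODE M21 on GRCm38 (mm10), which named 8955 genes beside 21273 symbols in the file. Copies were searched with blastn 2.17.0. Alternatives were 15 planned and 6 added after seeing the data, among them unrounded values.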

Additional observations from a re-analysis of the deposited data

How the results depend on the processing

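No direction reversed among called values under any alternative. With other scales more genes were higher: 3039 by median of ratios and 3083 by library totals, with 67 and 68 companion genes and 2 members in either case, and Lin28a at -0.998 and -0.994. At an adjusted p under 0.01, 1037 genes were higher. The authors' deposited test called 1100 lower and 284 higher, with 27 and 14 companion genes and 0 members higher. Without a filter on low values 638 genes were lower and 179 higher, with 14 and 5 companion genes and 3 and 0 members; with unrounded values this filter-free fit gave 1919 and 623, with 37 and 22 companion genes. Leaving out each library gave 0 calls for all genes, companion genes and members in either direction (lowest 0, highest 0); such a fit takes a lone library to vary as those of the other group do. With unrounded values the same leave-outs gave 3471 to 3939 lower and 1146 to 1608 higher. A replicate block gave 4311 lower and 1647 higher and changed no member call; the labels share only the replicate number, and same-numbered libraries did not deviate together (correlation 0.00153 across 14928 genes, which are not independent). Unrounded values, chosen after seeing the data, gave 4549 lower and 1789 higher. Depth limits Dppa3 most, at 18 to 20 reads a library.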
